A study of Arabidopsis thaliana with 8 samples.

Results

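Roots and shoots of Arabidopsis thaliana plants were compared on 8 ATH1 arrays, which make up the whole series: 4 hybridised with root RNA and 4 with leaf (rosette) RNA. All plants were of the ecotype Columbia 0, 3 weeks old and grown hydroponically. One array of each organ came from untreated control plants, and 1 each from plants given KBr, NaI or KI at 10 μM. According to the study's methods, iodine in the basal solution was below the limit of detection. Samples were taken 48 h after the salts were added, each as a pool of 3 plants. Every root array was set against the shoot array of its own treatment, so that 4 pairs sharing no array described the same organ contrast under 4 nutrient solutions. The question asked of these pairs was which transcripts marked an organ whatever salt was given. Each organ and treatment had 1 array, and the errors given below are therefore the spread of the organ difference over the treatments, which also holds any response to a salt that was limited to 1 organ. Values listed as 4 numbers are in the order control, KBr, NaI and KI.

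Leaves harvest light in the thylakoids of their chloroplasts, with photosystems built from plastid-encoded cores and nuclear-encoded small subunits and antennae, and fix carbon through the Calvin cycle. Roots hold non-green plastids. They take up water and ions through an epidermis with root hairs and an endodermis sealed by the Casparian strip, and their walls are loosened and cross-linked by expansins, xyloglucan endotransglucosylases and class III peroxidases. Both organs come from the same genome, so the genes below are read as transcripts present at unlike levels in 2 mixtures of cell types, and fewer cells of a type cannot be told apart from less RNA per cell.

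The values are MAS5 signals, the summary intensity of a set of probes on a linear scale, and a signal of 100 was taken as the lower limit of use. Of 22746 probe sets other than the Affymetrix controls, 16944 reached a signal of 100 on at least 1 array and were tested. A probe set was called when the log2 of root over shoot signal was at least 2 in size, in the same direction, in each of the 4 treatments, when the brighter array of every pair reached 100, and when the adjusted p of limma, a linear model with moderated variances, was under 0.05. The adjusted p removed none of the probe sets that met the fold and signal criteria. In all, 1468 probe sets (8.66% of those tested) were called higher in root and 1664 (9.82%) were called higher in shoot. Of the 9332 tested probe sets assigned to exactly 1 gene, 798 (8.55%) were called higher in root and 819 (8.78%) higher in shoot. By the adjusted p of limma alone, with no limit on size, 6347 (37.5%) were higher in root and 4583 (27.0%) higher in shoot. The median log2 root/shoot of all tested probe sets was 0.16. For single genes the mean log2 root/shoot of the 4 pairs is given ± its standard error from limma, with p-values adjusted over all tested probe sets (Benjamini-Hochberg). The dimmer organ stayed under a signal of 50 on all 4 of its arrays for 604 of the root calls and 503 of the shoot calls, and for these the size of the fold is uncertain, so that some values are also given with every signal under 50 raised to 50.

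Each pair alone, which allows no test, gave similar counts. At least 4-fold higher in root were 2228 probe sets in the control pair (13.1%), 2353 with KBr (13.9%), 2325 with NaI (13.7%) and 2253 with KI (13.3%). At least 4-fold higher in shoot were 2091 in the control pair (12.3%), 2095 with KBr (12.4%), 2052 with NaI (12.1%) and 2150 with KI (12.7%). Of the 3212 that were higher in root in any pair, 1468 were so in all 4, and of the 2614 that were higher in shoot in any pair, 1664 were so in all 4. The log2 differences of 2 treatments correlated across the tested probe sets with Pearson's r between 0.89 (control and KI) and 0.95 (control and KBr), where probe sets are not independent replicates. Only 2 probe sets were past the limits in opposite directions in different treatments. At the other end, 6338 probe sets (37.4%) stayed within 2-fold in all 4 treatments with the brighter array at 100 or above.

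**Figure D1:**
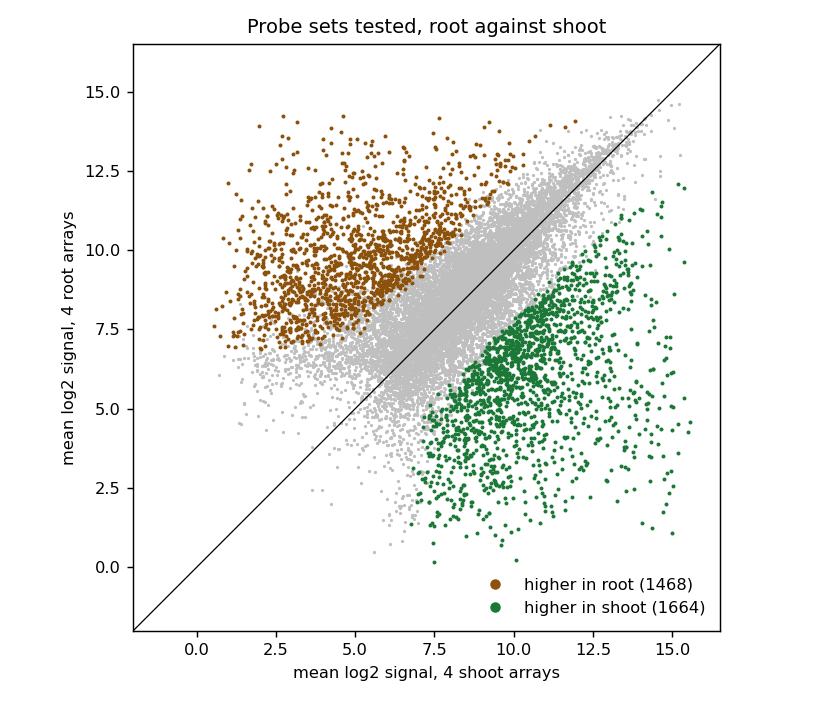
Mean log2 MAS5 signal of each of the 16944 tested probe sets on the 4 root arrays (vertical axis) against the 4 shoot arrays (horizontal axis), with the line of equal signal. The 1468 probe sets called higher in root (brown) and the 1664 called higher in shoot (green) lie off the diagonal, and most of the rest (grey) lie along it.

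Several features of the arrays moved with the organ. Rosette RNA and root RNA were extracted by different methods according to the study's methods. The sample records name the same method for all samples. If the methods differed as described, organ and extraction cannot be told apart. The 9 probe sets for hybridisation spike-ins, transcripts of bacterial and phage genes added during processing, had geometric means of 2028 to 2230 on the root arrays and 2496 to 3322 on the shoot arrays. Scaling the arrays to these spike-ins, an alternative chosen after seeing the data, moved the median log2 root/shoot of all tested probe sets to 0.66 and gave 1930 calls higher in root and 1301 higher in shoot, so that 59.7% of the calls were then higher in root, against 46.9% without it. The 100 brightest probe sets held 9.60% to 10.2% of the summed signal in root and 14.3% to 16.6% in shoot. The ratio of 3′ to 5′ probe sets for GAPDH, a sign of RNA integrity, was 1.02 to 1.38 in root and 1.51 to 1.88 in shoot, for ubiquitin it was 2.1 to 3.4 in root and 3.3 to 4.5 in shoot, and for actin it was 7.77 to 10.1 in root and 6.41 to 12.6 in shoot. Other probe sets for these transcripts gave other ratios. For GAPDH, 3′ signals were 13543 to 15139 in root and 9628 to 12391 in shoot. Its 5′ signals were 13483 to 16223 in root and 10895 to 13147 in shoot, near the 3′ signals in both organs. For actin, 3′ signals were 10969 to 11664 in root and 13266 to 15628 in shoot. Its 5′ signals were 6125 to 8738 in root and 6240 to 8199 in shoot. The ratios thus depended on the probe sets used. The part of these features in the calls was not tested beyond that scaling.

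Nuclear genes of photosynthesis were far higher in shoot. All 8 measured members of the photosystem and antenna lists were called higher in shoot, beside 9.82% of all probe sets tested. They were 3 of 15 listed genes of photosystem II, 2 of 13 of photosystem I and 3 of 22 of the light-harvesting complexes. All 4 measured enzymes of the Calvin cycle, of 24 listed, were also called higher in shoot. The other listed genes had no probe set assigned to them alone, so these counts and medians do not describe whole pathways. The median log2 root/shoot was -8.27 for photosystem II, -7.67 for the antenna and -9.04 for the Calvin cycle, beside 0.16 for all probe sets tested. LHCB4.2, which encodes a form of the antenna protein CP29, had signals of 21.2, 13.7, 2.80 and 7.97 in root and 14116, 12442, 10707 and 10176 in shoot. Its log2 root/shoot was -10.36 ± 0.39. PSAE-1, a subunit of the stromal side of photosystem I, had 13.5, 11.9, 7.21 and 1.88 in root and 24201, 24637, 28220.2 and 33472 in shoot, a log2 root/shoot of -11.97 ± 0.52. All 4 root signals of both genes lay under 25, and raising every signal under 50 to 50 gave log2 values of -7.88 and -9.10. SBPASE (sedoheptulose-bisphosphatase of the Calvin cycle) had 32.5, 21.2, 19.7 and 16.0 in root and 14247, 12447, 12814 and 11900.4 in shoot. RCA, the activase of Rubisco, had 60.6, 88.6, 90.3 and 52.4 in root and 34909, 30286, 30943 and 36838 in shoot, with a log2 root/shoot of -8.87 ± 0.20.

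Some members of the same lists differed much less. At1g56190, a phosphoglycerate kinase on the Calvin cycle list, had 1924, 1523, 1413 and 1393 in root and 8472, 8605, 7004 and 7414 in shoot, a log2 root/shoot of -2.34 ± 0.10, and the adjusted p was 2.1e-06. The 2 genes for the γ subunit of the chloroplast ATP synthase went in opposite directions. ATPC1 had 83.2, 86.5, 107 and 42.4 in root and 22255, 21267, 20573 and 22491 in shoot. ATPC2, in contrast, had 358, 323, 339 and 273 in root and 174, 163, 172 and 137 in shoot, and with a log2 root/shoot of 1.0 ± 0.15 it passed the adjusted p of limma (0.00109) but not the fold limit.

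Photorespiration gave a second such pair. Of 6 measured members, 4 were called higher in shoot and 1 higher in root, beside 9.82% and 8.66% of all probe sets tested. The H protein of glycine decarboxylase, which carries the intermediate between the enzyme's subunits in the mitochondrion, is encoded by several genes. At1g32470 had 22.0, 12.3, 55.2 and 16.7 in root and 10350.4, 9002, 7945 and 8759 in shoot, whereas At2g35120 had 5851, 5475, 6599.8 and 5537 in root and 729, 715, 698 and 679 in shoot. Their log2 root/shoot values were -8.65 ± 0.36 for the first gene and 3.05 ± 0.10 for the second, and the groups did not overlap in either. HPR, the peroxisomal hydroxypyruvate reductase, and LrgB, the plastid carrier of glycolate and glycerate, were called higher in shoot with log2 values of -8.52 ± 0.15 and -8.66 ± 0.37. At1g80380, the glycerate kinase of the last step, was not called. Its signals of 6342, 5355, 2363 and 2562 in root overlapped those in shoot (3489, 3521, 2902 and 2652).

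**Figure D2:**
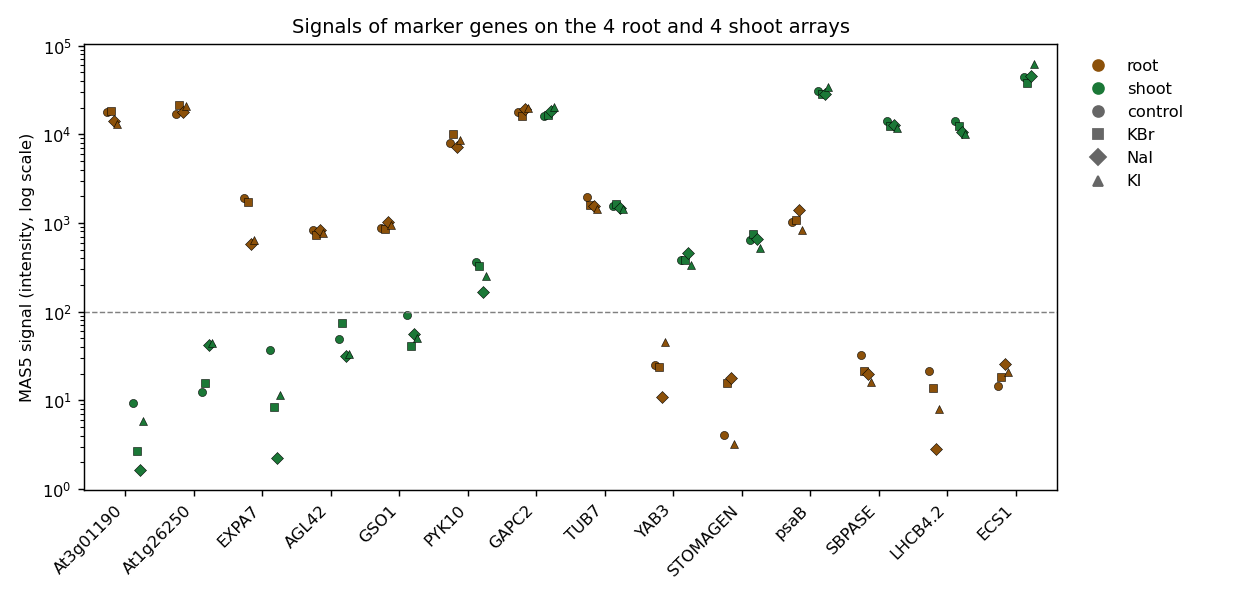
MAS5 signal (log scale) of 14 genes on each array, with root on the left and shoot on the right of each gene and a symbol for each treatment. The 6 root genes on the left and the 6 shoot genes on the right do not overlap between the organs, while GAPC2 and TUB7 do. The root and shoot genes were taken from the called genes, and a call already sets the organs at least 4-fold apart in each treatment. The dashed line marks a signal of 100.

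Genes encoded in the plastid genome were also higher in shoot, with smaller median differences than those of the nuclear photosystem lists. Of 69 measured plastid-encoded genes on 6 lists, 55 were called higher in shoot and none higher in root. The shares of all tested probe sets are 9.82% and 8.66%. In the shoot direction 68 of the 69 passed the adjusted p of limma. These lists were added after values were seen, so their counts are a description. The median log2 root/shoot was -4.84 for the 5 photosystem I genes, -4.22 for the 15 photosystem II genes, -4.17 for the 10 ndh genes of the chloroplast NAD(P)H dehydrogenase-like complex, -3.75 for the 13 genes of the cytochrome b6f complex, ATP synthase and Rubisco large subunit, and -2.39 for the 20 genes of the plastid's own gene expression. psaA, a core protein of photosystem I, had 81.6, 90.8, 111 and 78.3 in root and 8451, 7393, 8623 and 9481 in shoot. psbA, which encodes the D1 protein of photosystem II, had 112, 121, 142 and 93.7 in root and 11042, 10670.3, 8415 and 10384 in shoot. rbcL, the large subunit of Rubisco, had 312, 303, 268 and 247 in root and 3607, 3736, 3748 and 3421 in shoot, with a log2 root/shoot of -3.69 ± 0.10. All root signals of these 3 genes were above 50.

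Plastid genes that do not serve photosynthesis were among those with small differences. accD, a subunit of the acetyl-CoA carboxylase of fatty acid synthesis, had 1286, 1235, 1488 and 1234 in root and 2650.1, 3571, 3753 and 4192 in shoot. clpP, a protease subunit, had 3311, 2902, 3708 and 3425 in root and 11065, 12911, 11258 and 10830.0 in shoot. Their log2 root/shoot values of -1.42 ± 0.13 and -1.79 ± 0.12 did not reach the fold limit in every treatment. Among the gene expression members, 12 of 20 were called, with rps4 at -3.99 ± 0.13 and rps3 at -1.83 ± 0.09, and only 4 of 20 were called when arrays were scaled to the spike-ins. For mitochondrion-encoded genes, a list also added after values were seen, 0 of 10 measured members were called. The share of all tested probe sets called in either direction is 18.5%. Of the 10 members, 3 passed the adjusted p of limma, all higher in root (median log2 root/shoot of the list 0.16).

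The measured nuclear genes for plastid ribosomes and thylakoid assembly were nearly all called higher in shoot. Both lists were added after values were seen, so their counts are a description. The share of all tested probe sets to set beside them is 9.82% higher in shoot. All 10 measured nuclear genes of plastid ribosomal proteins and related factors were called higher in shoot, with log2 root/shoot from -5.02 to -3.09. At2g43030 had 645, 588, 364 and 418 in root and 15668, 12772, 12053 and 11550.0 in shoot. Of 17 measured genes of thylakoid structure, the NDH complex and photosystem assembly, 16 were called higher in shoot, with a median log2 root/shoot of -5.33. The member that was not called, At4g38100 (CURT1D), had 699, 712, 596 and 607 in root and 1764, 1843, 1292 and 1447 in shoot, while its relative At4g01150 (CURT1A, which shapes the curved margins of thylakoid stacks) had 179.7, 292, 206 and 230.1 in root and 23322, 21576, 19273 and 22718 in shoot. TROL, a thylakoid anchor of ferredoxin-NADP reductase, had 5.74, 7.12, 6.23 and 7.54 in root and 3035, 3707, 4164 and 3794 in shoot.

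**Figure D3:**
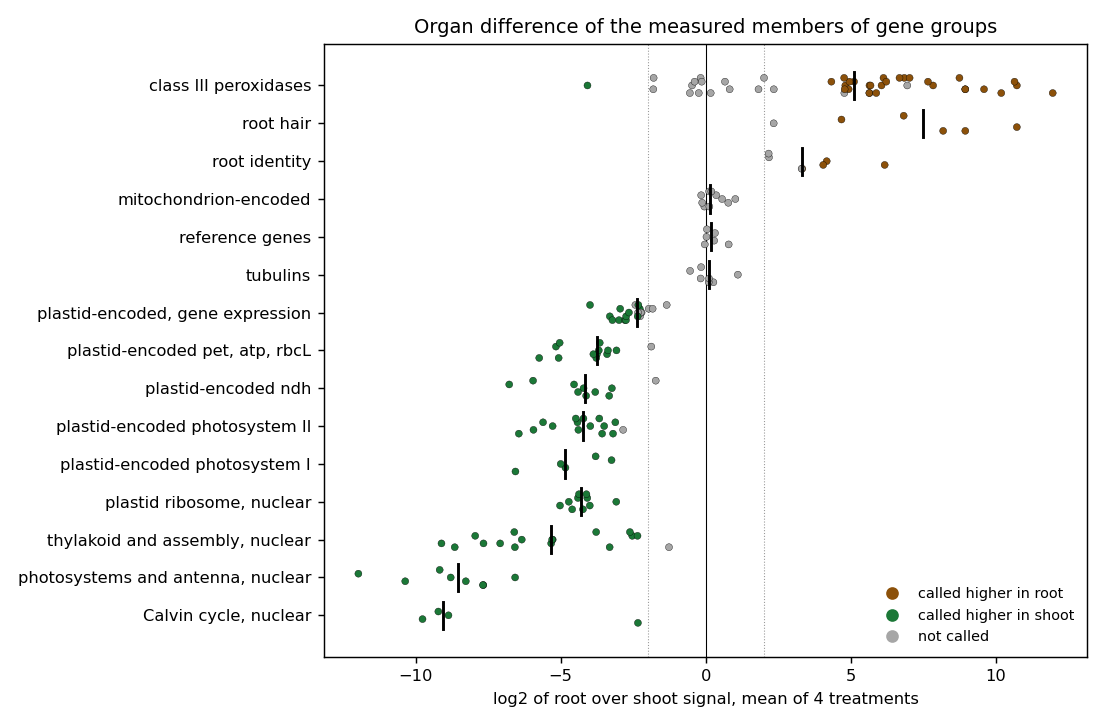
Mean log2 of root over shoot signal over 4 treatments (horizontal axis) for each measured member of 15 gene groups, coloured by call, with the group median as a bar and the fold limit as dotted lines. Nuclear photosynthesis genes reach furthest to the shoot side, plastid-encoded genes lie between -6.77 and -1.35, reference, tubulin and mitochondrion-encoded genes lie around 0, and class III peroxidases reach furthest to the root side.

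Along the tetrapyrrole pathway, the measured genes of the chlorophyll branch had larger organ differences than the measured genes of the steps before it. Of 10 measured members 6 were called higher in shoot and 0 higher in root, beside 9.82% and 8.66% of all probe sets tested. In the shoot direction 9 passed the adjusted p of limma. HEMB1 and GSA1, enzymes of the steps shared with haem, had log2 root/shoot values of -1.61 ± 0.13 and -1.60 ± 0.10. HEME1 and HEME2 (uroporphyrinogen decarboxylase) stood at -3.15 ± 0.11 and -3.18 ± 0.14, and hemf2, named for the coproporphyrinogen oxidase that acts after them, at -1.26 ± 0.29. CHLM, the magnesium-protoporphyrin methyltransferase, had 310.4, 323, 176 and 178 in root and 7295, 6544, 5204 and 5749.6 in shoot, and CHLI2, a subunit of magnesium chelatase, had 31.5, 23.3, 23.6 and 16.3 in root and 1970.4, 1821, 1304 and 1327 in shoot. PORB, which reduces protochlorophyllide in the light, had 19.4, 14.9, 6.77 and 18.5 in root and 13608, 12692, 9981 and 12065 in shoot, a log2 root/shoot of -9.77 ± 0.21. HEMA2, a glutamyl-tRNA reductase gene not tied to green tissue, had 321, 184, 551 and 568 in root and 185, 254, 218 and 326 in shoot, and its difference did not pass the test (adjusted p of 0.0991 in limma), although it did without the KBr pair (log2 root/shoot 0.98, adjusted p of 0.00782) and with the spike-in scaling (1.11, adjusted p of 0.00683).

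All 6 measured genes of starch and sugar metabolism were called higher in shoot, beside 9.82% of all probe sets tested. Their median log2 root/shoot was -3.68. PWD, a dikinase that phosphorylates starch for its breakdown at night, had 317, 344, 368 and 289 in root and 5025, 4203, 4079 and 4170.4 in shoot. ATSPS4F, a sucrose-phosphate synthase, had 19.7, 16.9, 39.2 and 52.4 in root and 1020.3, 1221, 1630.2 and 1497 in shoot, and SWEET11, which exports sucrose towards the leaf phloem, had 125, 123, 59.8 and 78.7 in root and 2149.7, 1574, 2125 and 2039.9 in shoot. Among phenylpropanoid genes, 3 of 4 were called higher in shoot: DFR, the dihydroflavonol reductase of anthocyanin synthesis (53.7, 28.7, 15.9 and 31.4 in root and 674, 548, 927 and 1009 in shoot), and the flavonol glycosyltransferases UGT78D1 and UGT78D2. HCT, which serves lignin precursors, had 4705, 4581, 5578 and 6341 in root and 1859, 1716, 1352 and 1414 in shoot, and with a log2 root/shoot of 1.74 ± 0.16 it missed the fold limit in the control and KBr pairs.

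YAB3 and YAB5, regulators of the lower leaf side, were both called higher in shoot. YAB3 had 24.7, 23.5, 11.0 and 45.9 in root and 380.3, 386, 452 and 339 in shoot, so that the organs did not overlap. In the stomata and trichome list 3 of 5 measured members were called higher in shoot, beside 9.82% of all probe sets tested. FMA, a regulator of guard cell formation, had 3.54, 30.2, 26.4 and 19.3 in root and 205, 210.4, 175 and 203 in shoot. STOMAGEN, a peptide made in the mesophyll that promotes stomata, had 4.08, 15.7, 17.8 and 3.22 in root and 638, 758, 652 and 518 in shoot. SPCH, which starts the stomatal lineage, had 1.72, 12.2, 2.34 and 4.54 in root and 88.0, 109, 88.0 and 93.0 in shoot, and since only 1 shoot array reached 100 it was not called. These lists served as the check of the labelled organs, together with the root lists below. Genes specific to flowers and seeds were not analysed here, since none had a probe set assigned to it alone in the annotation used.

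The 10 genes named for the size of the smallest of their 4 differences in the shoot direction were ECS1, PSAE-1, COR15A, At1g09310, LHCB4.2, PORB, At5g38520, At1g14345, TROL and At1g70820. Their root signals were all under 50, so no order among them is given, and with the floor of 50 their log2 root/shoot lay between -9.86 (ECS1) and -5.52 (At1g70820), where RCA had -8.87 and HPR -8.14 without being among them. ECS1 had 14.6, 18.3, 25.3 and 20.6 in root and 43658, 37579, 45722 and 61541 in shoot, with a log2 root/shoot of -11.23 ± 0.16, or -9.86 with the floor of 50. COR15A, a cold-regulated protein of the chloroplast stroma, had 14.8, 3.22, 2.51 and 15.3 in root and 24959.6, 18279, 19653 and 18474 in shoot, and its shoot signals differed by less than 2-fold between the treatments.

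In root, many secreted class III peroxidases, which use hydrogen peroxide to cross-link or loosen cell walls, were high. Of 45 measured members 28 were called higher in root and 1 higher in shoot, beside 8.66% and 9.82% of all probe sets tested. The median log2 root/shoot was 5.11, and 33 passed the adjusted p of limma in the root direction. The list was added after values were seen, so its counts are a description. The summed signal of the 45 genes was 159307 to 168256 on the root arrays and 33444 to 47812 on the shoot arrays. PRXR1, which was not called, had 24366, 25064, 25230.0 and 22251 in root and 28967, 26941, 32233 and 39969.9 in shoot, a log2 root/shoot of -0.39 ± 0.14 that read 0.49 after quantile normalization and 0.10 with the spike-in scaling. At3g01190 had 17742, 18119, 14137 and 12901 in root and 9.31, 2.65, 1.64 and 5.89 in shoot, a log2 root/shoot of 11.95 ± 0.40 (adjusted p of 8.3e-07) that read 8.28 with the floor of 50. At5g64100 had 13014, 13832, 11184 and 11935 in root and 56.1, 71.1, 34.6 and 106 in shoot. At3g21770 was measured on both sides, with 7599, 6509.6, 6744 and 6463 in root and 309, 204, 264 and 212 in shoot, and its log2 root/shoot was 4.80 ± 0.11. The single member called higher in shoot, At5g58390, had 22.6, 4.46, 39.1 and 18.0 in root and 228, 169, 428 and 350.3 in shoot, and it was no longer called with signals under 50 raised to 50.

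Root hair and root identity genes were high on the arrays labelled root. The median log2 root/shoot of the 6 measured root hair genes was 7.50 (4.43 with the floor of 50). Of the 6, 5 were called higher in root, beside 8.66% of all probe sets tested. Besides the peroxidases At4g26010 and At1g30870 these were EXPA7 and EXPA18, expansins of growing hairs, and XTH26. EXPA7 had 1917, 1731, 582 and 635 in root and 36.4, 8.32, 2.22 and 11.3 in shoot. XTH26, a xyloglucan endotransglucosylase, had 1568, 1957, 518 and 520.1 in root and 3.59, 1.72, 6.75 and 2.83 in shoot. In both genes the NaI and KI roots read below the control and KBr roots, and all 4 root samples stayed above every shoot sample. CSLD2, a cellulose synthase-like protein of hair tips, had 1553, 1347, 2397 and 2268 in root and 347, 352, 391 and 366 in shoot, and a log2 root/shoot of 2.34 ± 0.15 with 1 treatment under the fold limit.

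Of 7 measured root identity genes, 4 were called higher in root, beside 8.66% of all probe sets tested. The other 3 (JKD, LBD16 and LBD29) passed the adjusted p of limma. UPB1, a regulator of the step from cell division to elongation, had 377, 379, 343 and 363 in root and 12.1, 18.7, 15.7 and 68.0 in shoot. AGL42, a MADS-box gene used as a marker of the quiescent centre, had 833, 730.3, 837 and 771 in root and 49.3, 74.0, 31.2 and 33.3 in shoot. LBD29, a target of auxin signalling in lateral root formation, had 191, 181, 78.2 and 57.0 in root and 4.54, 4.39, 37.9 and 21.7 in shoot, where all shoot signals were under 50. GSO1, a receptor kinase needed for a closed Casparian strip, was the only measured member of the Casparian strip and suberin list and was called higher in root, with 887, 849, 1025 and 956 in root and 90.8, 40.9, 55.2 and 50.7 in shoot.

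Of 3 measured genes for indole glucosinolates and myrosinases, 2 were called higher in root, beside 8.66% of all probe sets tested. PYK10, the β-glucosidase of ER bodies, had 8042, 10000.1, 7129 and 8544 in root and 364, 327, 168 and 249 in shoot, and NAI2, which is needed to form these bodies, had 5549, 3828, 2252 and 2705 in root and 185, 187, 104 and 101 in shoot. Their log2 root/shoot values were 4.98 ± 0.16 for PYK10 and 4.61 ± 0.13 for NAI2. At3g13610 (F6′H1), which makes the coumarin scopoletin, had 7765, 8413, 17671 and 15476 in root and 9.22, 24.3, 48.6 and 109.6 in shoot, and At3g12900 (S8H), which hydroxylates it to fraxetin under iron shortage, had 349, 221, 141 and 371 in root and 40.2, 23.4, 7.62 and 8.96 in shoot. Of 5 measured genes of metal homeostasis these 2 were called higher in root, beside the same share of 8.66%. With the floor of 50 only At3g13610 was called. PYE, a regulator of the iron response, went the other way within 4-fold, with a log2 root/shoot of -1.08 ± 0.15. Neither of the 2 measured genes of aliphatic glucosinolates was called. Their log2 root/shoot values were -0.75 and 0.80 (median 0.02). Both passed the adjusted p of limma, 1 higher in shoot and 1 higher in root. The 1 measured gene of the triterpene and terpene list was not called either.

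Among the 10 genes named in the same way in the root direction, 4 were peroxidases (At3g01190, At4g26010, At5g17820 and At1g30870). The others, which carry no symbol in the tables used here, were At3g28550, At5g26280, At4g33720, At1g26250, At4g15390 and At3g13760. At4g33720 had 18296, 22109, 17552 and 19730.4 in root and 5.16, 4.03, 31.2 and 2.85 in shoot, and At4g15390 had 17782, 18302, 15411 and 16029.8 in root and 5.20, 3.14, 38.7 and 10.1 in shoot. With the floor of 50 their log2 root/shoot values were 8.60 and 8.40. At1g26250 had 17118, 21365, 17604 and 21068 in root and 12.3, 15.4, 42.4 and 43.9 in shoot. All 3 genes were named for an organ difference that was large in every treatment, so these values describe the choice.

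Within several gene families some members were called higher in root and others higher in shoot. The family lists were added after values were seen, so their counts are a description. The shares of all tested probe sets to set beside these counts are 8.66% higher in root and 9.82% higher in shoot. Of 8 measured XTH genes of xyloglucan remodelling 6 were called higher in root and 1, XTH32, higher in shoot. XTH18 had 2944, 3177, 2691 and 3960.5 in root and 9.17, 17.7, 12.2 and 10.6 in shoot, against 145, 81.6, 96.8 and 69.4 in root and 1119.7, 1154, 1035 and 1002 in shoot for XTH32. Of 16 measured expansins, which loosen walls during growth, 3 were called higher in root (EXPA7, EXPA18 and EXPA9) and 1 higher in shoot, a share below that of all probe sets. This was EXPA8, with 54.3, 17.0, 91.5 and 46.3 in root and 416, 500.3, 631 and 682 in shoot. Among 8 measured SWEET sugar carriers, SWEET16, a carrier of the vacuole membrane, was called higher in root (1907, 1874, 648 and 650.4 in root and 83.0, 49.3, 23.7 and 64.0 in shoot), while SWEET1, SWEET4 and SWEET11 were called higher in shoot. SWEET1 had 90.2, 99.2, 87.4 and 82.5 in root and 830.0, 627, 584 and 687 in shoot. Glutathione transferases of the tau class split as well, with 4 of 10 called higher in root and 3 higher in shoot. GSTU28 had 3619, 2936, 2183 and 2406 in root and 82.7, 75.1, 20.2 and 58.3 in shoot, and GSTU20 had 1111, 1206, 1404 and 1504 in root and 7667, 8327, 7279 and 7795 in shoot. With the floor of 50, 2 of the 4 root calls (GSTU21 and GSTU23) were lost.

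The UDP-glycosyltransferases, which attach sugars to hormones and phenolics, were divided almost evenly, with 9 of 32 measured members called higher in root and 7 higher in shoot. UGT72E2, which glucosylates lignin precursors, had 1460.4, 1663, 2061 and 2129 in root and 104, 60.2, 117 and 239 in shoot. UGT76B1 had 1218, 2077, 1971 and 2301 in root and 5.55, 4.80, 2.94 and 4.92 in shoot, whereas UGT78D1 had 3.79, 2.72, 2.09 and 5.34 in root and 456, 610.2, 732 and 601 in shoot. Of 15 measured AGAMOUS-like MADS-box genes, 5 were called higher in root (AGL19, AGL21, AGL42, AGL71 and AGL79) and 2 higher in shoot (AGL24 and AGL87). AGL79 had 770.1, 860.4, 644 and 617 in root and 10.9, 8.92, 1.66 and 2.11 in shoot. AGL24, a promoter of flowering, had 2.60, 2.46, 3.74 and 1.65 in root and 219.8, 265, 197 and 238 in shoot. With the floor of 50 only 1 of the 2 shoot calls was kept. Tetraspanins, membrane proteins of cell contacts, were called in 1 direction, with 4 of 8 higher in root and 0 higher in shoot. TET8 had 5497, 5274, 7529 and 6385 in root and 1001, 962, 1266 and 1016 in shoot. Of 19 measured TBL genes, members of a family that acetylates wall polysaccharides, 6 were called higher in root and 1 higher in shoot, the second again a share below that of all probe sets.

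**Figure D4:**
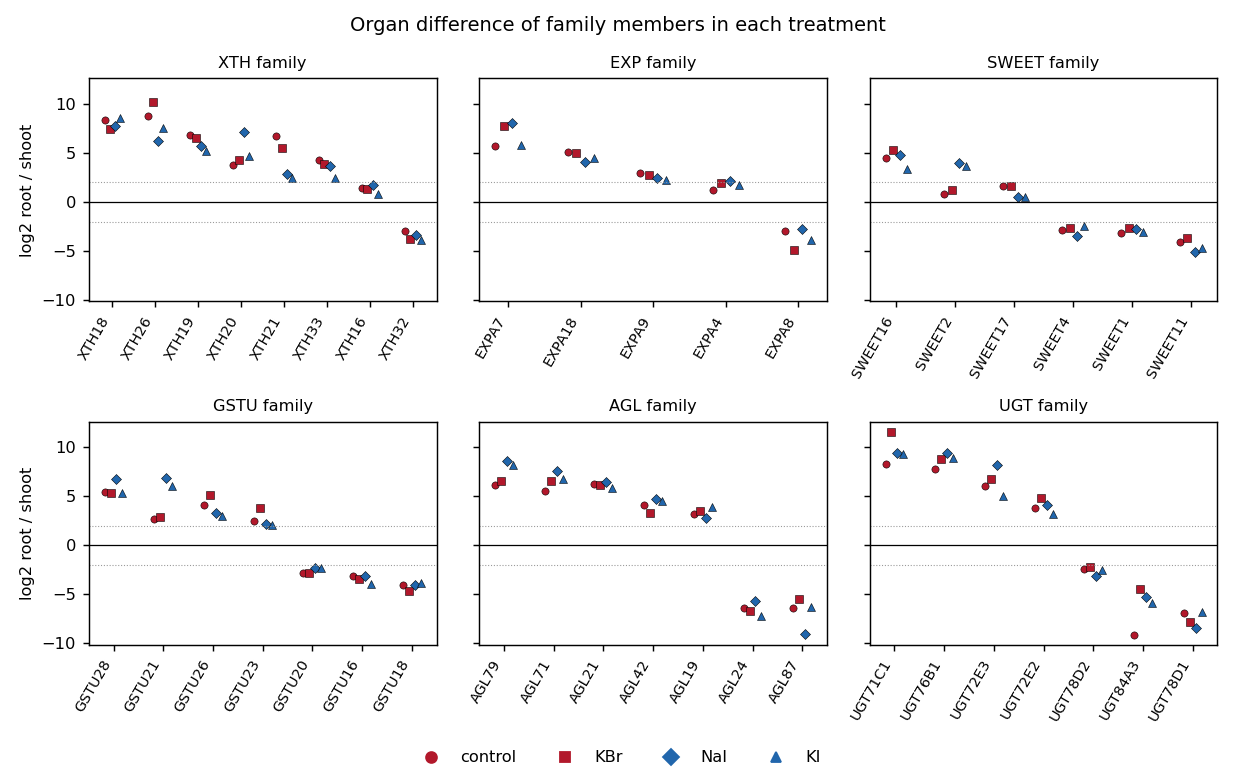
Log2 of root over shoot signal (vertical axis) of members of 6 gene families in each of the 4 treatments, 1 symbol per pair of arrays, red for control and KBr and blue for NaI and KI, with dotted lines at the fold limit. Each family has members above and below 0. The members shown are a selection, most of them called, and a call already requires the same side in all 4 treatments.

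Genes used to normalise transcript data differed little between the organs. None of the 6 measured reference genes was called, beside 18.5% of all probe sets tested in either direction. Of the 6, 2 passed the adjusted p of limma, both higher in root. GAPC2, a cytosolic glyceraldehyde-3-phosphate dehydrogenase, had 17656, 16215, 19421 and 19606 in root and 16055, 16591, 18204 and 20272 in shoot, a log2 root/shoot of 0.04 ± 0.10 that read 0.78 after quantile normalization and -0.042 with the arrays scaled to the same median. At2g28390 had 674, 589, 591 and 635 in root and 513, 674, 645 and 736 in shoot, and its log2 root/shoot of -0.04 ± 0.14 turned to 0.46 when arrays were scaled to the spike-ins. PEX4, a ubiquitin-conjugating enzyme, had 1823, 1921, 1793 and 2026 in root and 905, 1205, 1298 and 1017 in shoot and was higher in root in each treatment, by a log2 of 0.79 ± 0.12 (adjusted p of 0.00129). The 7 measured tubulin genes lay between -0.54 and 1.10. TUB1, at the upper end, had 2605, 2130.2, 1872 and 1850.0 in root and 1032, 1039, 959 and 877 in shoot, and it passed the adjusted p of limma but not the fold limit. Under the spike-in scaling the log2 values of all these genes shift towards root together with the median of all probe sets.

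For part of the genes, the organ difference itself varied with the treatment. The organ difference with iodide (NaI and KI) was tested in limma against that without it (control and KBr). The test passed for 1131 probe sets (6.67% of those tested), of which 245 were among the 3132 organ calls. With signals under 50 raised to 50 it passed for 2123 of the 16944 tested, an alternative chosen after seeing the data. Most genes described here were named for the width of their spread over treatments, so their values are a description. At5g26130 had 18721, 18383, 203 and 125 in root and 30.4, 37.3, 33.3 and 55.6 in shoot, a change in the log2 root/shoot of -7.22 with iodide. At5g38910 went the other way (a change of 6.58), with 132, 123, 17999.8 and 14867 in root and 10.0, 7.74, 4.58 and 30.5 in shoot. At2g30670 had 50.9, 94.2, 6563 and 6907 in root and 58.2, 35.2, 57.2 and 60.9 in shoot, so that root exceeded every shoot sample by a wide margin with NaI and KI. At3g47480 changed sides, with 33.1, 40.8, 1267 and 1134 in root and 212, 219.7, 404 and 281 in shoot, and all shoot samples lay between the root samples without iodide and those with it. On the shoot side, At1g19960 had 58.6, 101, 1862 and 1684 in root and 5298, 5139.7, 6531 and 4909 in shoot. Its shoot signals varied little and its organ difference narrowed as the root signals rose in NaI and KI. At5g43450 had 3.42, 5.33, 68.4 and 64.0 in root and 514, 401, 465 and 403 in shoot, and since its root signals lay near or under 50 its change with iodide of 4.02 read 0.47 with the floor.

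**Figure D5:**
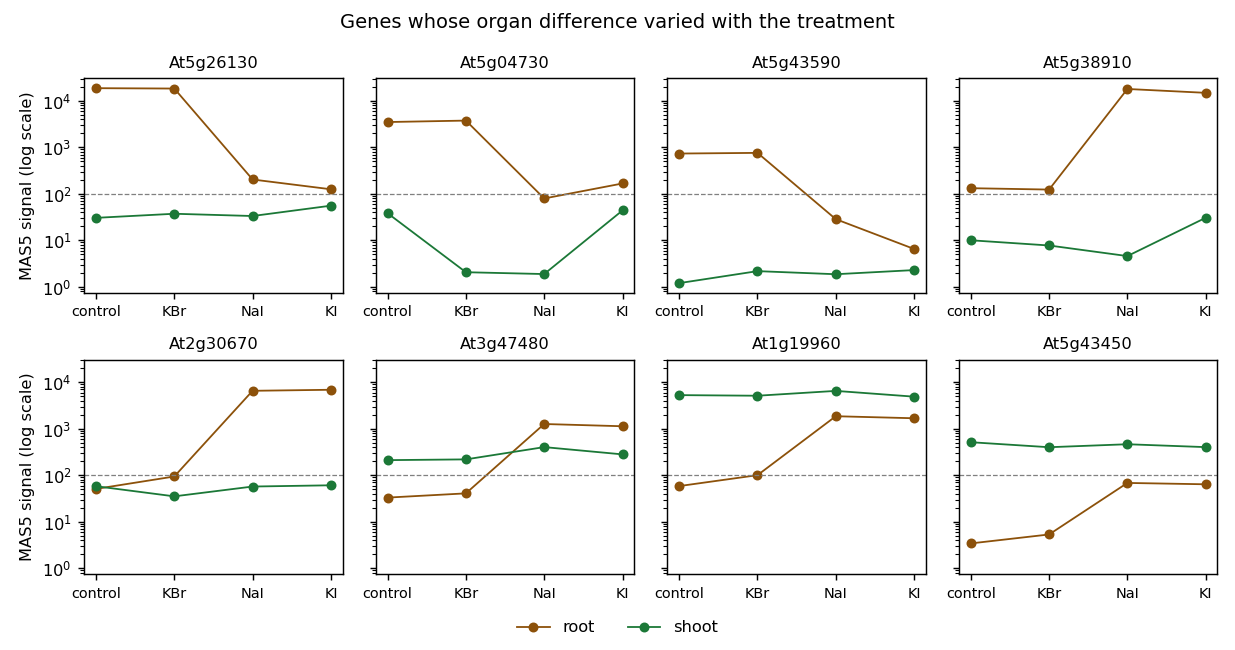
MAS5 signal (log scale) of 8 genes across control, KBr, NaI and KI in root (brown) and shoot (green), 1 array per point, with a dashed line at 100. Root signals change between the treatments without and with iodide while shoot signals change less, and signals under 50, such as those of At5g43450 in control and KBr roots, give a change no clear size.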

How the data were processed

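RNA of 4 root and 4 shoot samples was hybridised to ATH1 arrays with 1 array per organ and treatment. The authors deposited MAS5 signal intensity values on a linear scale, whose 2% trimmed mean was the same on all arrays. No background correction or further normalization was added. Signals were log2-transformed, and 64 Affymetrix control probe sets were left out. Root minus shoot was fitted in limma 3.58.1 (R 4.3.3) with treatment as a block and an intensity trend, and p-values were adjusted (Benjamini-Hochberg) over the 16944 probe sets that reached 100 on any array. The organ difference with and without iodide was fitted as an interaction. The number of arrays limits the precision, and since each sample was a pool, no spread between plants was measured.

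Names came from the platform annotation, updated through RefSeq. Of all 22810 probe sets, controls included, 13513 had 1 gene, 503 several and 8794 none. Of those with 1 gene, 13484 matched RefSeq. Many listed genes were therefore not measured, such as all but 5 of 49 for metal homeostasis and all but 2 of 18 for aliphatic glucosinolates. A list stands only for its measured members. The brightest probe set stood for genes with several.

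The members and gene lists were chosen with earlier results of these data known, and the lists of peroxidases, gene families, thylakoid, plastid ribosome and organelle-encoded genes were added after values were seen. Named genes were, per direction, the 10 called genes with the largest smallest difference, the 10 brightest, the 5 most variable over treatments, up to 4 called members per list, and all reference genes. Of 110 genes named in the text, 49 fell outside this rule and were chosen after their values were seen. Alternatives were other scalings, fold and signal limits, a pseudocount of 32, a floor of 50, other limma settings and leaving out each pair. On simulated arrays of this contrast (16944 probe sets, 200 changed), 4% of changes of log2 2 and 100% of changes of log2 3 were called. The changes were placed only in probe sets with a geometric mean signal of at least 200. Recovery for dimmer probe sets was therefore not measured.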

Additional observations from a re-analysis of the deposited data

Results flagged for a closer look

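Of the genes named above, 11 had an organ difference that was not the same with iodide (NaI and KI) as without it (control and KBr) in the limma test of that difference. Of these, 5 were named for their wide spread over treatments, and their count and values are a description and no test. A positive change means that root gained on shoot with iodide. For these 5 the change in log2 root/shoot was 6.58 for At5g38910, 6.22 for At2g30670, 4.41 for At1g19960, 4.02 for At5g43450 and -7.22 for At5g26130. With signals under 50 raised to 50, an alternative chosen after seeing the data, that of At5g43450 was 0.47, and the other 4 were 7.0, 6.47, 4.41 and -6.94 for At5g38910, At2g30670, At1g19960 and At5g26130.

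Of the other 6, 3 rested on or depended in size on signals under 50. At1g26250 changed by -1.64 (adjusted p of 0.00664 in limma), with all shoot signals under 50, and by 0.01 with the floor (adjusted p of 0.981). GSTU21 gained 3.69 (adjusted p of 0.0305), with 143, 162, 265 and 194 in root and 22.5, 22.9, 2.27 and 2.98 in shoot, and 0.57 with the floor (adjusted p of 0.248). LBD29 changed by -4.16 (adjusted p of 0.0261) and by -1.48 with the floor (adjusted p of 0.0158). At3g47480, chosen after its values were seen, gained 4.38 (adjusted p of 0.00036) and 3.94 with the floor. HCT gained 0.73 (adjusted p of 0.0193), and the glycerate kinase gene At1g80380 changed by -0.91 (adjusted p of 0.0127), both measured well above 50 on every array. The test treats control with KBr, and NaI with KI, as pairs of arrays although the treatments within each pair differ.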

How the results depend on the processing

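The counts of 1468 probe sets higher in root and 1664 higher in shoot depended most on the limits set. With a log2 limit of 1 they were 2695 and 2547, and with a limit of 3 they were 851 and 1046. A signal of 500 on the brighter array left 825 higher in root, and a signal of 100 on both arrays left 244 higher in root and 507 higher in shoot. Probe sets with exactly 1 gene gave 798 and 819. Single pairs gave 2228, 2353, 2325 and 2253 higher in root in the order control, KBr, NaI and KI. Leaving out each pair in turn gave 1510 to 1623 higher in root and 1708 to 1744 higher in shoot. The other scalings, the pseudocount, the floor and the other limma settings kept the counts within 1.5 times.

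Some small differences changed sign. The spike-in scaling and the scaling to the same median each divide an array by 1 factor. Each therefore moved the log2 root/shoot of every probe set by the same amount. The median of all tested probe sets went from 0.16 to 0.66 with the spike-in scaling and to 0.08 with the same-median scaling. The cause of the other sign changes was not tested. At2g28390 (-0.035) read 0.46 with the spike-in scaling, and -0.18 to 0.024 when single pairs were left out, with 0.018 without the KBr pair and 0.024 without the KI pair. At3g47480 (-0.36) read 0.13 with the spike-in scaling, and -1.15 to 0.41 when single pairs were left out, with 0.41 without the control pair and 0.33 without the KBr pair. GAPC2 (0.04) read -0.042 with arrays scaled to the same median, and PRXR1 (-0.39) read 0.49 after quantile normalization and 0.10 with the spike-in scaling. The adjusted p of limma was lost for LBD29 without the control pair or the KBr pair, for At2g30670 without the NaI pair or the KI pair, for At5g26130 without the KBr pair, for PRXR1 without the control, NaI or KI pair (adjusted p of 0.0881, 0.107 and 0.153), and for hemf2 with the spike-in scaling (-0.77, adjusted p of 0.0627). It was gained for HEMA2 without the KBr pair, and with the spike-in scaling for HEMA2, At1g80380, GAPC2 and TUB7, and after quantile normalization for GAPC2. The change with iodide of At1g26250 (-1.64) read 0.010 with signals under 50 raised to 50, and the count of probe sets with such a change was 2123, against 1131 without the floor. Signals near or under 50 limit the size of a fold, and 1 array per organ and treatment leaves the spread between plants unmeasured.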
